A study of Sus scrofa with 48 samples.

Results

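Fat from around the kidney, perirenal adipose tissue or PRAT, was compared between Large White barrows selected for low residual feed intake (RFIneg) and barrows selected for high residual feed intake (RFIpl), all fed the low fat, low fiber (LF) diet, whose main energy source was starch. Residual feed intake (RFI) is the part of feed consumption that growth and maintenance do not predict, so a low RFI pig is an efficient one. The members are the 24 LF arrays, 12 of each line, of the 48 arrays of the series, and they were taken from the sample titles. The other 24 pigs, 12 of each line, received a high fat, high fiber (HF) diet and serve here as other animals in which the same line difference was measured. Every pig was 132 days old by the labels, had free access to feed and contributed RNA to 1 one-colour array of the series. Each direction of selection is represented by 1 line, so an effect of selection and any other difference between these lines cannot be told apart. The tissue is bulk fat, in which fewer cells of a type and less RNA per cell cannot be told apart.

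White adipocytes take up fatty acids and make them from glucose, store them as triglyceride in a lipid droplet and release them again by lipolysis. Enzymes of the mitochondrion and peroxisome shorten or modify the fatty acids that are burned, while antioxidant enzymes and lactonases deal with oxidised lipids. On a diet rich in starch, the depot depends on glucose for new fat. The comparison asks which of these and other transcripts differ between efficient and inefficient pigs on that diet.

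Levels are the log2 of the median spot intensity minus the median of all 60305 noncontrol probes of the array, so a level of 0 is that of the median probe and a difference of 1 is a doubling of intensity. A probe was tested when its spot was well above background on at least 12 of the 24 LF arrays, and 43327 probes, which name 10938 genes, met this. A probe was called with a raw p under 0.01, a fold change over 1.1 and a Benjamini-Hochberg (BH) adjusted p under 0.08 in limma. The median signal of the tested probes lay between 291 and 429.5 per LF array against a median background of 23 to 33, no spot was saturated, and the arrays correlated with one another at r = 0.969 or more. The number of arrays limits the precision. Each of the 6 slides held 2 arrays of each diet and line, and 3 slides were scanned on each of 2 days.

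The identity of the arrays was first examined with probes chosen on the HF pigs. The LF pigs entered that choice only through the filter on background and the shared estimate of the spread. Among the HF pigs 413 probes were called between the lines, and each LF pig was placed on them by its mean deviation from the midpoint of the LF lines, signed so that the low RFI side is positive. The 12 high RFI pigs lay between -0.36 and -0.07, and 11 of the 12 low RFI pigs lay between 0.09 and 0.32. Low RFI pig 4 lay at -0.25, among the high RFI pigs. It was on the low RFI side of the midpoint at 93 of the 413 probes, whereas the other low RFI pigs were so at 233 to 350 of them and the high RFI pigs at 53 to 177. Its array was of ordinary quality, with a median correlation of 0.989 with the other LF arrays. Pig 4 did not lie with the high RFI line at every gene: of the 180 probes called on the LF diet it was on the high RFI side at 111, and for the paraoxonases below it kept a low RFI level. Why this pig stands apart was not tested. It is therefore kept in all values, as its label has it, and the value without it is given beside the counts and the genes described in full.

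**Figure D1:**
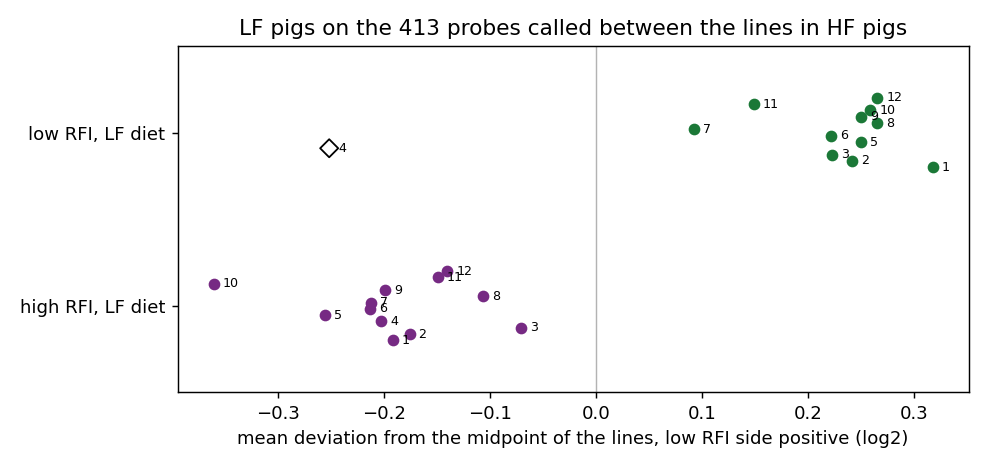
Mean deviation of each LF pig from the midpoint of the lines over the 413 probes called between the lines in HF pigs (x axis, log2, low RFI side positive), by line (y axis), with 1 numbered point per pig. Low RFI pig 4, drawn as a diamond, lies at -0.25 among the high RFI pigs, and the other 11 low RFI pigs lie at 0.09 or above.

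With all pigs, 180 of the 43327 probes were called between the lines on the LF diet, which is 0.415% of those tested. Of these, 98 were higher in low RFI and 82 higher in high RFI pigs. Without low RFI pig 4 the number rose to 335 (0.773%), with 161 higher in low RFI and 174 higher in high RFI pigs, and all 180 probes were among them. The called differences ranged from 0.19 to 1.98 on the log2 scale in absolute size, with a median of 0.58, against a median of 0.06 over all probes tested, and 18 of the called probes differed by more than a doubling. No probe, called or not, separated all 12 pigs of one line from all 12 of the other. Without pig 4, 2 probes did so. At the brightest probe of each gene 36 of 10938 genes were called (0.329%), of which 22 were higher in low RFI (0.201%) and 14 higher in high RFI pigs (0.128%), and without pig 4 the count was 79, with 46 higher in low RFI and 33 higher in high RFI pigs. The 36 genes were again among the 79.

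**Figure D2:**
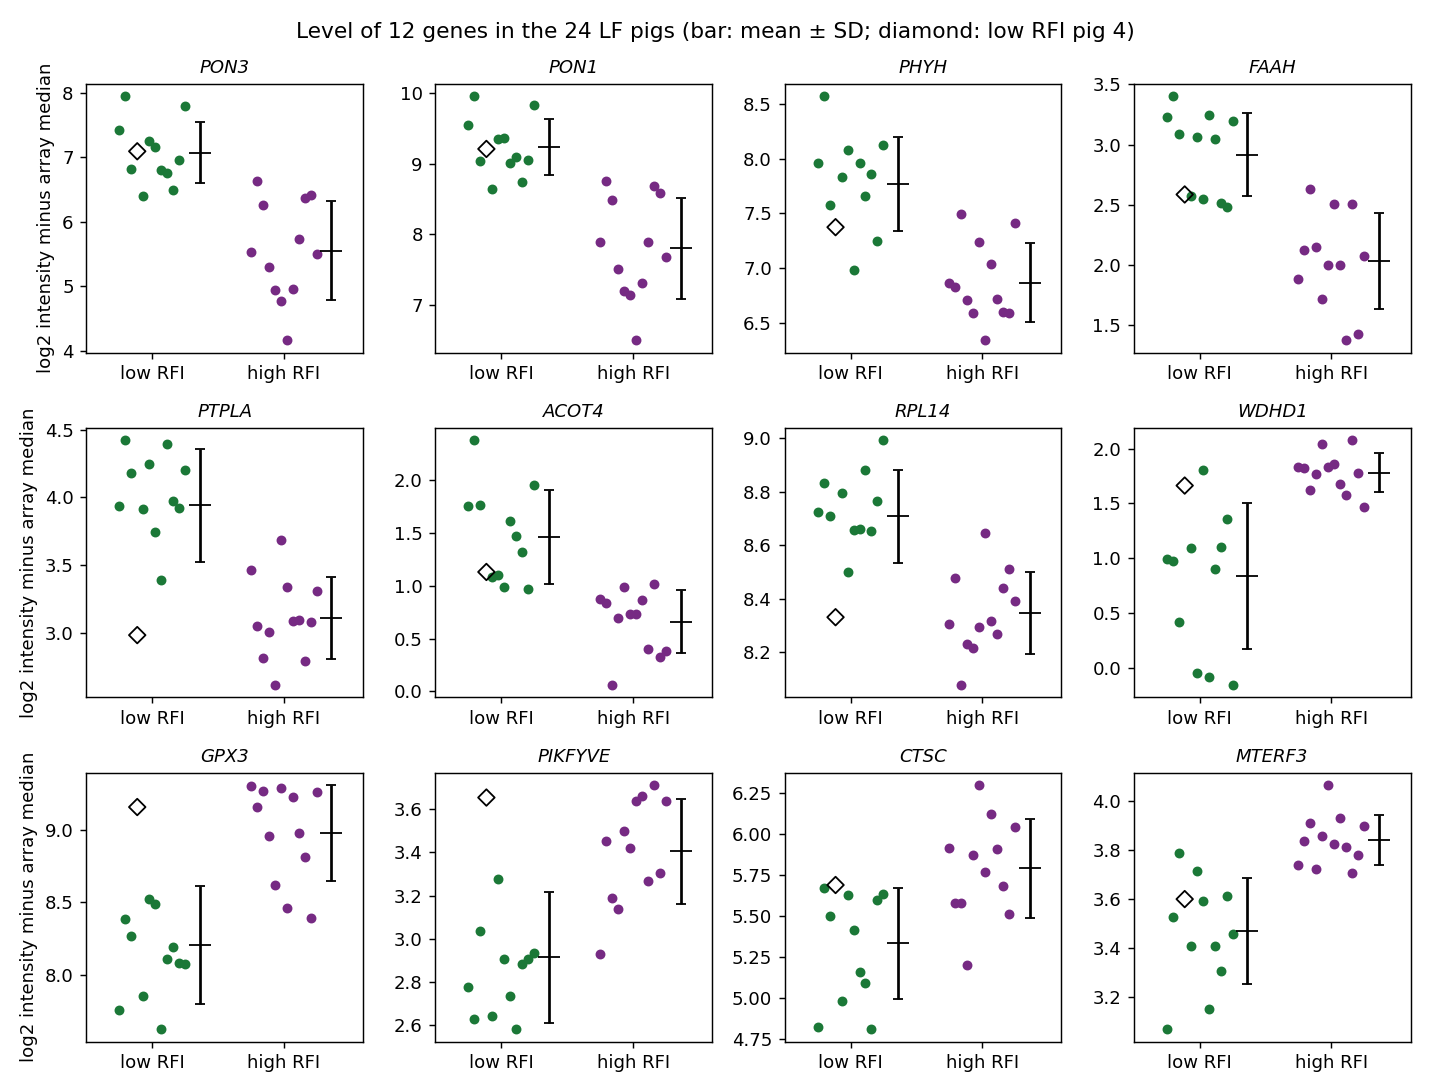
Level of 12 of the called genes (y axes, log2 intensity minus array median) in each of the 12 low RFI and 12 high RFI pigs on the LF diet, with 1 point per pig, bars for the mean and SD of each line, and a diamond for low RFI pig 4. The lines overlap at every gene, and pig 4 sits with its own line for PON3 and PON1 but among the high RFI pigs for PTPLA, RPL14, WDHD1, GPX3 and PIKFYVE.

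The largest differences of called genes were those of the paraoxonases, lactone-hydrolysing enzymes that in blood travel on high-density lipoprotein and protect lipids from oxidation. PON3 ranged from 6.39 to 7.95 in low RFI pigs, with a median of 7.02, and from 4.16 to 6.63 in high RFI pigs, with a median of 5.52. At this probe 10 of the 12 low RFI pigs were above every high RFI pig. The difference was 1.52 ± 0.31 (SE), a 2.87-fold change with BH p = 0.0115, and 1.52 without low RFI pig 4. All 3 tested PON3 probes were called, with differences from 1.45 to 1.52. PON1, the family member known for hydrolysing paraoxon, ranged from 8.64 to 9.96 in low RFI pigs, with a median of 9.15, and from 6.50 to 8.76 in high RFI pigs, with a median of 7.78. Here too the overlap was small, and 10 low RFI pigs exceeded all high RFI pigs. The difference was 1.43 ± 0.29 (SE), a 2.70-fold change with BH p = 0.00892, and 1.43 without low RFI pig 4. Among HF pigs PON3 differed by 1.06 ± 0.31 (BH p = 0.112) and PON1 by 0.95 ± 0.29 (BH p = 0.122), in the same direction and short of a call at these probes. The direction held on all 6 slides for both genes. Their brightest probes rose and fell together over the LF pigs. Low RFI pig 2 had the highest value at both, 7.95 for PON3 and 9.96 for PON1. High RFI pig 7 had the lowest at both, 4.16 and 6.50. Whether these probes measure separate transcripts was not tested.

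The 3 probes of PON1 did not move together, and their sequences are shown because the direction for this gene depends on them. They are the designed array oligonucleotides as the scanner files give them, 5′ to 3′, with no stretch marked, in order of brightness.
PON1, brightest probe: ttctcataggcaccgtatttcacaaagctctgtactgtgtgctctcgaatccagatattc
PON1, middle probe: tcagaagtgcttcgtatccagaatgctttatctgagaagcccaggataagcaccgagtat
PON1, dimmest probe: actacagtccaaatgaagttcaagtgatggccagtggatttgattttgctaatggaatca
The middle probe differed by 1.52 ± 0.30 (BH p = 0.00758), like the brightest. The dimmest probe ran the other way: it ranged from 0.16 to 2.16 in low RFI pigs, with a median of 1.19, and from 1.64 to 3.16 in high RFI pigs, with a median of 2.03, and the difference was -1.09 ± 0.26 (BH p = 0.0414). Its mean level over the LF pigs was 1.71, against 8.52 for the brightest probe. Its HF difference was -0.28 ± 0.26 (BH p = 0.842). PON1 was the 1 gene with probes called in both directions, and what the dimmest probe binds was not tested.

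PHYH, PTPLA, FAAH, ACOT4 and ECHDC2 are put together here after they were called, and the gene lists of fat metabolism held no gene called at its brightest probe. PHYH, the peroxisomal phytanoyl-CoA hydroxylase that begins alpha-oxidation of branched fatty acids, ranged from 6.98 to 8.57 in low RFI pigs, with a median of 7.85, and from 6.34 to 7.49 in high RFI pigs, with a median of 6.77. The lines overlapped, with 9 low RFI pigs above and 8 high RFI pigs below the whole of the other line. The difference was 0.90 ± 0.15 (SE), a 1.87-fold change with BH p = 0.00120, and 0.94 without low RFI pig 4. All 6 PHYH probes were called, with differences from 0.82 to 0.98, and 1 of them is printed as an example of a probe that moved with its companions.
PHYH, 1 of 6 called probes: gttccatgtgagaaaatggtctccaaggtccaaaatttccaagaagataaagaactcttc
PHYH differed in the HF pigs by 0.85 ± 0.15 (BH p = 0.00125), a call on that diet as well. PTPLA, a dehydratase of very long chain fatty acid elongation now known as HACD1, had the smallest adjusted p of the named genes. It ranged from 2.98 to 4.42 in low RFI pigs, with a median of 3.95, and from 2.61 to 3.68 in high RFI pigs, with a median of 3.08. Pig 4 had the lowest low RFI level, 2.98, and the other 11 pigs of its line lay at 3.39 or above. The difference was 0.83 ± 0.12 (SE), a 1.78-fold change with BH p = 0.000369, and 0.92 without low RFI pig 4. It was 0.74 ± 0.12 (BH p = 0.000552) in the HF pigs, a call too.

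FAAH, the fatty acid amide hydrolase that breaks down anandamide, ranged from 2.48 to 3.40 in low RFI pigs, with a median of 3.06, and from 1.37 to 2.63 in high RFI pigs, with a median of 2.03. Of the 12 low RFI pigs, 7 were above the whole high RFI range. The difference was 0.88 ± 0.19 (SE), a 1.84-fold change with BH p = 0.0206, and 0.91 without low RFI pig 4. It was 0.77 ± 0.19 (BH p = 0.0448) in the HF pigs, where FAAH was called, and 2 of its 3 probes were called on the LF diet. ACOT4, a peroxisomal acyl-CoA thioesterase, ranged from 0.97 to 2.38 in low RFI pigs, with a median of 1.39, and from 0.06 to 1.01 in high RFI pigs, with a median of 0.73. The overlap was slight, with 10 low RFI pigs beyond all high RFI pigs. The difference was 0.80 ± 0.19 (SE), a 1.75-fold change with BH p = 0.0402, and 0.83 without low RFI pig 4. Its other tested probe differed by -0.16, so the call rests on 1 of 2 probes. ECHDC2, a mitochondrial protein with an enoyl-CoA hydratase domain, ranged from 4.42 to 5.74 in low RFI pigs, with a median of 5.13, and from 3.98 to 5.23 in high RFI pigs, with a median of 4.54. Its lines overlapped over most of their range, with 5 pigs of each line beyond the other. The difference was 0.58 ± 0.14 (SE), a 1.49-fold change with BH p = 0.0447, and 0.58 without low RFI pig 4. The HF differences were 0.58 ± 0.19 (BH p = 0.179) for ACOT4 and 0.28 ± 0.14 (BH p = 0.517) for ECHDC2, neither a call.

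Other lipid genes were found outside the rule for named genes and were picked after their values were seen. SCP2, the sterol carrier and peroxisomal thiolase gene, was called at its dimmest probe, with a difference of 1.02 ± 0.19 (BH p = 0.00479), while its brightest probe gave 0.25 ± 0.08 (BH p = 0.196). All 4 SCP2 probes were higher in low RFI pigs. PLIN2, which coats lipid droplets, ranged from 2.97 to 4.58 in low RFI pigs, with a median of 4.06, and from 2.62 to 3.78 in high RFI pigs, with a median of 3.21. Its difference, 0.71 ± 0.19, had a BH p of 0.0944 and was not called, but it was called without pig 4. The other of the 2 PLIN2 probes differed by 0.28 with all pigs and was not called. ALDH2, the mitochondrial aldehyde dehydrogenase, differed by 0.92 ± 0.26 (BH p = 0.137), with all 11 of its probes between 0.80 and 0.97 and none called.

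Some ribosomal protein transcripts were higher in low RFI pigs at part of their probes. RPL14, a protein of the large cytosolic subunit, ranged from 8.33 to 8.99 in low RFI pigs, with a median of 8.72, and from 8.08 to 8.65 in high RFI pigs, with a median of 8.31. Of the 12 low RFI pigs, 10 were above every high RFI pig, and pig 4 was the lowest of its line. The difference was 0.36 ± 0.06 (SE), a 1.28-fold change with BH p = 0.00222, and 0.40 without low RFI pig 4, and 6 of 7 probes were called. It was 0.32 ± 0.06 (BH p = 0.00438) in the HF pigs. RPL6 was not called at its brightest probe (0.04 ± 0.05), but 9 of its 15 probes were, with differences up to 0.60, and the other 6 differed by 0.04 to 0.12. RPL38 split in the same way: the brighter probe differed by -0.01 ± 0.05 and the dimmer one by 1.36 ± 0.28 (BH p = 0.00958), with 1.82 in the HF pigs. RPL6 and RPL38 lie outside the rule and were picked after their values were seen. Ribosomal protein genes have many near-identical copies in mammalian genomes, so these transcripts are uncertain, and what each probe binds was not tested.

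**Figure D3:**
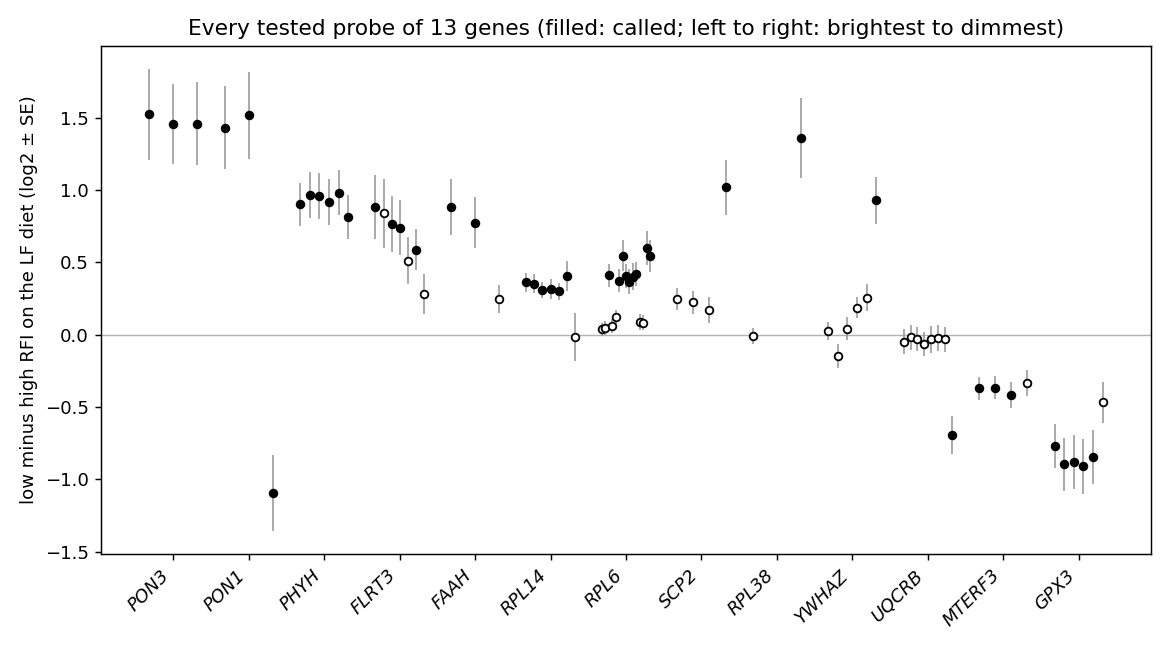
Line difference on the LF diet (y axis, low minus high RFI, log2, with its SE) at every tested probe of 13 genes (x axis), ordered within a gene from the brightest to the dimmest probe and filled where called. All probes of PON3 and PHYH are called in 1 direction, the dimmest PON1 probe is opposite to the other 2, and RPL38, SCP2, YWHAZ and UQCRB are called at a single probe.

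The other genes higher in low RFI pigs had varied roles. FLRT3, a membrane protein of cell adhesion and fibroblast growth factor signalling, ranged from 0.66 to 2.88 in low RFI pigs, with a median of 1.19, and from -0.08 to 1.20 in high RFI pigs, with a median of 0.49. The upper low RFI pigs stood clear of the other line, 6 of 12. The difference was 0.88 ± 0.22 (SE), a 1.84-fold change with BH p = 0.0559, and 0.90 without low RFI pig 4, with 4 of 7 probes called and all 7 in the same direction. NUP43, a nuclear pore subunit, ranged from 1.67 to 2.68 in low RFI pigs, with a median of 2.13, and from 0.47 to 2.35 in high RFI pigs, with a median of 1.35. Here 5 low RFI pigs were above the other line. The difference was 0.82 ± 0.19 (SE), a 1.77-fold change with BH p = 0.0337, and 0.87 without low RFI pig 4, and it was 0.40 among pigs scanned on the first day and 1.25 among those of the second. DOK2, an adaptor of tyrosine kinase signalling in blood cells, ranged from 2.36 to 3.90 in low RFI pigs, with a median of 2.77, and from 1.66 to 2.82 in high RFI pigs, with a median of 2.13. The lines shared the middle of that range. The difference was 0.69 ± 0.15 (SE), a 1.62-fold change with BH p = 0.0168, and 0.69 without low RFI pig 4, at 1 of 4 probes. The HF differences were 0.59 ± 0.22 (BH p = 0.271) for FLRT3, 0.58 ± 0.19 (BH p = 0.179) for NUP43 and 0.44 ± 0.15 (BH p = 0.209) for DOK2, all in the same direction and none called.

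HEATR4 was steady within the low RFI line, and its values ranged from 2.87 to 3.20 in low RFI pigs, with a median of 2.99, and from 2.0 to 3.01 in high RFI pigs, with a median of 2.32. All but 1 of the high RFI pigs, 11 of 12, lay below every low RFI pig. The difference was 0.63 ± 0.11 (SE), a 1.55-fold change with BH p = 0.00147, and 0.63 without low RFI pig 4, and HEATR4 was called in the HF pigs too, with 0.46 ± 0.11 (BH p = 0.0252). IFI27L2, related to an interferon-induced gene, ranged from 5.56 to 6.49 in low RFI pigs, with a median of 5.96, and from 4.38 to 6.06 in high RFI pigs, with a median of 5.37. Its lines overlapped in the middle, and the direction held on 5 of 6 slides. The difference was 0.63 ± 0.14 (SE), a 1.55-fold change with BH p = 0.0274, and 0.63 without low RFI pig 4. TMEM126B, an assembly factor of respiratory complex I, ranged from 3.92 to 5.08 in low RFI pigs, with a median of 4.48, and from 3.72 to 4.32 in high RFI pigs, with a median of 3.95. Of the low RFI pigs 8 exceeded all high RFI pigs. The difference was 0.53 ± 0.12 (SE), a 1.45-fold change with BH p = 0.0285, and 0.57 without low RFI pig 4, with both probes called. On the HF diet IFI27L2 differed by 0.37 ± 0.14 (BH p = 0.313) and TMEM126B by 0.42 ± 0.12 (BH p = 0.101), neither a call.

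AARD was dim, being well above background on 10 of the 12 low RFI and 3 of the 12 high RFI arrays, and it ranged from -1.59 to -0.16 in low RFI pigs, with a median of -1.09, and from -1.86 to -1.13 in high RFI pigs, with a median of -1.53. Most low RFI pigs, 7 of 12, were above the other line, but 9 of the 12 high RFI values were not well above background, and AARD met the filter mainly through the low RFI pigs. The difference was 0.51 ± 0.12 (SE), a 1.42-fold change with BH p = 0.0334, and 0.53 without low RFI pig 4. USP33, a deubiquitinating enzyme, ranged from 3.12 to 3.78 in low RFI pigs, with a median of 3.43, and from 2.66 to 3.49 in high RFI pigs, with a median of 2.90. Most high RFI pigs, 10 of 12, were below the whole low RFI line. The difference was 0.46 ± 0.10 (SE), a 1.38-fold change with BH p = 0.0145, and 0.47 without low RFI pig 4. The HF difference was 0.18 ± 0.12 (BH p = 0.705) for AARD and 0.44 ± 0.10 (BH p = 0.0141) for USP33, of which the second was a call. Beyond the 15 largest, the genes called higher in low RFI pigs were PTPN18 (0.43), a tyrosine phosphatase, ALG1 (0.42), an enzyme of N-glycan synthesis, TMEM178 (0.41), PIGL (0.41), an enzyme of glycosylphosphatidylinositol anchors, FRY (0.35), a protein of microtubules, and NDUFAF6 (0.34), which like TMEM126B helps assemble complex I. FRY was called at 1 of 2 probes, the other of which differed by -0.24, and the mean of both gave 0.06. PIGL was likewise called at 1 of 2 probes, with 0.16 at the other.

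Among the called genes higher in high RFI pigs, GPX3 was the brightest. It encodes the secreted glutathione peroxidase, a selenoprotein made by kidney and fat that reduces peroxides in plasma. GPX3 ranged from 7.62 to 9.16 in low RFI pigs, with a median of 8.15, and from 8.39 to 9.30 in high RFI pigs, with a median of 9.07. Low RFI pig 4, at 9.16, had the highest value of its line, and the other 11 low RFI pigs did not exceed 8.52. The difference was -0.77 ± 0.15 (SE), a 1.71-fold change with BH p = 0.00832, and -0.86 without low RFI pig 4. All 6 tested probes were lower in low RFI pigs, with differences from -0.91 to -0.47, and 5 were called. The HF difference was -0.65 ± 0.15 (BH p = 0.0255), a call. GPX3 was the single called member of the 37 antioxidant and glutathione genes tested, of which 28 were higher in low RFI pigs.

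WDHD1, a factor of DNA replication, showed the largest difference in this direction and ranged from -0.15 to 1.80 in low RFI pigs, with a median of 0.98, and from 1.47 to 2.07 in high RFI pigs, with a median of 1.80. Most low RFI pigs, 10 of 12, were below the narrow high RFI range. The difference was -0.94 ± 0.18 (SE), a 1.92-fold change with BH p = 0.00493, and -1.02 without low RFI pig 4, at 1 of 2 probes, the other differing by -0.03. PIKFYVE, a lipid kinase of endosomes, ranged from 2.58 to 3.65 in low RFI pigs, with a median of 2.89, and from 2.93 to 3.71 in high RFI pigs, with a median of 3.44. Pig 4 was the highest of its line, at 3.65, and the next reached 3.28. The difference was -0.49 ± 0.10 (SE), a 1.41-fold change with BH p = 0.0110, and -0.56 without low RFI pig 4, at 1 of 2 probes, the other differing by -0.19. MTERF3, a regulator of mitochondrial gene expression, ranged from 3.07 to 3.79 in low RFI pigs, with a median of 3.49, and from 3.71 to 4.07 in high RFI pigs, with a median of 3.83. The lines met at their edges, with 10 low RFI pigs below all high RFI pigs. The difference was -0.37 ± 0.08 (SE), a 1.29-fold change with BH p = 0.0168, and -0.38 without low RFI pig 4, with 3 of 4 probes called and the same direction at all 4. The HF differences were -0.73 ± 0.18 (BH p = 0.0333) for WDHD1, -0.45 ± 0.10 (BH p = 0.0150) for PIKFYVE and -0.30 ± 0.08 (BH p = 0.0588) for MTERF3, and all 3 were calls.

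KCNK5, a background potassium channel, ranged from 0.37 to 1.79 in low RFI pigs, with a median of 0.58, and from 0.62 to 2.16 in high RFI pigs, with a median of 1.74. The lower low RFI pigs, 8 of 12, were beneath the other line. The difference was -0.87 ± 0.21 (SE), a 1.83-fold change with BH p = 0.0518, and -0.84 without low RFI pig 4, and in the HF pigs it was -0.02 ± 0.21 (BH p = 0.993). SMIM7 ranged from 2.48 to 3.71 in low RFI pigs, with a median of 2.82, and from 2.67 to 4.18 in high RFI pigs, with a median of 3.70. Both lines spread widely and overlapped. The difference was -0.64 ± 0.16 (SE), a 1.56-fold change with BH p = 0.0490, and -0.70 without low RFI pig 4, and it was -0.84 ± 0.16 (BH p = 0.00195) in the HF pigs, a call. SPDEF, a transcription factor of secretory epithelia, ranged from -0.98 to 0.16 in low RFI pigs, with a median of -0.39, and from -0.30 to 1.08 in high RFI pigs, with a median of 0.23. Of each line 7 pigs lay outside the other. The difference was -0.58 ± 0.14 (SE), a 1.5-fold change with BH p = 0.0579, and -0.63 without low RFI pig 4. HELQ, a DNA helicase, ranged from 1.11 to 1.89 in low RFI pigs, with a median of 1.51, and from 1.12 to 2.38 in high RFI pigs, with a median of 2.04. Most high RFI pigs, 9 of 12, were above the low RFI line. The difference was -0.50 ± 0.11 (SE), a 1.42-fold change with BH p = 0.0274, and -0.54 without low RFI pig 4, while its other probe, not called, differed by -0.08. On the HF diet SPDEF differed by -0.42 ± 0.14 (BH p = 0.223) and HELQ by -0.37 ± 0.11 (BH p = 0.131), in the same direction and not called.

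MLX, the dimerisation partner of the glucose-responsive factors MondoA and ChREBP, ranged from 2.23 to 3.08 in low RFI pigs, with a median of 2.54, and from 2.33 to 3.55 in high RFI pigs, with a median of 3.1. The lines overlapped over most of their range, with 6 high RFI pigs above the whole low RFI line. The difference was -0.46 ± 0.11 (SE), a 1.37-fold change with BH p = 0.0625, and -0.49 without low RFI pig 4, and its other probe differed by 0.11. MLX was called in the HF pigs, with -0.65 ± 0.11 (BH p = 0.00124). CTSC, the cathepsin that activates serine proteases of leukocyte granules, ranged from 4.81 to 5.69 in low RFI pigs, with a median of 5.46, and from 5.20 to 6.30 in high RFI pigs, with a median of 5.82. The upper high RFI pigs, 7 of 12, stood above the low RFI line. The difference was -0.46 ± 0.11 (SE), a 1.37-fold change with BH p = 0.0432, and -0.49 without low RFI pig 4, with -0.32 and no call at its other probe. FAM103A1, a partner of the mRNA cap methyltransferase, ranged from -0.70 to 0.15 in low RFI pigs, with a median of -0.21, and from -0.24 to 0.50 in high RFI pigs, with a median of 0.24. Most high RFI pigs, 8 of 12, were above all low RFI pigs. The difference was -0.44 ± 0.09 (SE), a 1.35-fold change with BH p = 0.0122, and -0.48 without low RFI pig 4. CTSC differed by -0.27 ± 0.11 (BH p = 0.344) and FAM103A1 by -0.37 ± 0.09 (BH p = 0.0397) in the HF pigs, of which the second was a call.

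GINS2, part of the replicative helicase, ranged from -0.24 to 0.38 in low RFI pigs, with a median of 0.09, and from -0.08 to 0.77 in high RFI pigs, with a median of 0.49. Most high RFI pigs, 9 of 12, exceeded the low RFI line. The difference was -0.35 ± 0.09 (SE), a 1.28-fold change with BH p = 0.0518, and -0.38 without low RFI pig 4. CACNB3, a subunit of voltage-gated calcium channels, ranged from 3.40 to 4.06 in low RFI pigs, with a median of 3.69, and from 3.74 to 4.15 in high RFI pigs, with a median of 4.01. Most low RFI pigs, 8 of 12, were below the other line. The difference was -0.28 ± 0.06 (SE), a 1.21-fold change with BH p = 0.0313, and -0.31 without low RFI pig 4. HAND1, a developmental transcription factor, ranged from 0.92 to 1.32 in low RFI pigs, with a median of 1.09, and from 1.06 to 1.70 in high RFI pigs, with a median of 1.37. Of the high RFI pigs, 8 were above the whole low RFI line. The difference was -0.26 ± 0.05 (SE), a 1.19-fold change with BH p = 0.0141, and -0.28 without low RFI pig 4, and its other probe differed by -0.09. HF differences were -0.24 ± 0.09 (BH p = 0.270) for GINS2, -0.27 ± 0.06 (BH p = 0.0221) for CACNB3 and -0.13 ± 0.05 (BH p = 0.390) for HAND1, of which that of CACNB3 was a call.

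All 36 genes had the same direction on both scan days, 27 had it on all 6 slides and 9 on 5 of the 6. NUP43 was not alone in a smaller first-day difference. First and second day gave 0.33 and 0.92 for IFI27L2, 0.28 and 0.78 for TMEM126B, 0.13 and 0.55 for NDUFAF6, and -0.27 and -0.71 for PIKFYVE. Others were alike on both days, such as PON3 (1.58 and 1.46) and GPX3 (-0.78 and -0.76). With either day alone there were 12 LF pigs, and the fit of the first day called none of the 43327 probes in limma, with 1575 at a raw p under 0.05, while that of the second day called 71, with 2714. Of the 36 genes, 22 were called in each of the 24 fits that left out 1 LF pig. The genes that lost the call most often were PTPN18, called in 6 of those fits, MLX in 9, SPDEF and TMEM178 in 10 and KCNK5 in 11.

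A further 19 genes were called at a probe other than their brightest, and the following were picked from them after their values were seen. YWHAZ, a phosphoserine-binding adaptor protein, differed by 0.93 ± 0.16 (BH p = 0.00222) at its dimmest probe and by 0.03 at its brightest. PSMD1, a proteasome subunit, differed by 0.93 ± 0.23 at 1 of 8 probes and by -0.03 at the brightest. UQCRB, a subunit of respiratory complex III, was lower in low RFI pigs, with -0.69 ± 0.13 (BH p = 0.00439) at its dimmest probe, and its other 7 probes differed by -0.06 to -0.02. Of 39 genes with a called probe and more than 1 tested probe, 5 had every probe called and 28 had a single one. Among their 84 uncalled probes 69 had the direction of the called ones. These genes were chosen by a call on the same pigs, so that count is no independent evidence.

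Of the 180 called probes 89 carry a gene symbol and 91 do not, a similar share as over all 43327 probes tested, of which 22653 carry one. Some of the largest differences are among the 91. The 5 largest are given, picked after their values were seen. The probe the files name TC580963, described there as a homolog of the uncharacterized protein C8orf37, ranged from -1.53 to 2.41 in low RFI pigs, with a median of 1.48, and from -1.56 to -0.88 in high RFI pigs, with a median of -1.30. It was well above background in 11 low RFI and 8 high RFI pigs, and the upper low RFI pigs lay far above every high RFI pig, while pig 4, at -1.26, lay among the high RFI pigs. The difference was 1.98 ± 0.40 (BH p = 0.00892), 2.16 without pig 4 and 2.09 in the HF pigs (BH p = 0.00273). NP276891, described as a major histocompatibility complex class I antigen, ranged from -0.87 to 4.15 in low RFI pigs, with a median of 1.95, and from 2.64 to 3.96 in high RFI pigs, with a median of 3.39. Pig 4, at 4.15, was above every other pig of either line. The difference was -1.92 ± 0.47 (BH p = 0.0518), -2.17 without pig 4 and -1.86 in the HF pigs (BH p = 0.0453). The probe named 115555467, without a description, ranged from -0.25 to 2.80 in low RFI pigs, with a median of 0.47, and from 1.91 to 3.95 in high RFI pigs, with a median of 2.80. Pig 4 lay among the high RFI pigs, at 2.80. The difference was -1.76 ± 0.37 (BH p = 0.0122), -1.93 without pig 4 and -1.64 in the HF pigs (BH p = 0.0164). TC566155, described as a phospholipase C domain protein, ranged from -1.18 to 1.13 in low RFI pigs, with a median of -0.26, and from -0.61 to 2.90 in high RFI pigs, with a median of 1.17, and pig 4 was again the highest of its line. The difference was -1.31 ± 0.31 (BH p = 0.0376), -1.43 without pig 4 and -0.68 in the HF pigs (BH p = 0.449). TC532498, without a description, had the smallest adjusted p of all probes and ranged from 0.87 to 2.06 in low RFI pigs, with a median of 1.63, and from -0.01 to 1.03 in high RFI pigs, with a median of 0.27. Pig 4 was its lowest low RFI pig, and without it the lines did not overlap. The difference was 1.25 ± 0.15 (BH p = 4.43e-06), 1.32 without pig 4 and 0.97 in the HF pigs (BH p = 0.000223).

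The HF pigs are other animals, whose only part in the choice of these probes was the shared estimate of the spread. Among them 179 of the 180 probes differed in the same direction as in the LF pigs, against 61.9% of all probes tested. The exception was a dim probe of EPHA4, an ephrin receptor, at 0.28 on the LF and -0.06 on the HF diet. It was the 1 called of 4 EPHA4 probes, and the brightest differed by 0.20 on the LF diet (BH p = 0.940). Of the 180 probes 82 were also called on the HF diet, where 413 probes (0.953% of those tested) were called. The 82 are 45.6% of the LF and 19.9% of the HF calls, and probes called on both diets are 0.189% of those tested. The median absolute difference of the 180 probes was 0.58 on the LF diet, from which they were chosen, and 0.44 on the HF diet. All 36 genes had the same direction on both diets and 16 were called on both. Without pig 4, 328 of the 335 LF calls had the direction of the HF pigs and 156 were called there. Pig 4 was singled out on probes called in the HF pigs, so these counts without it are no independent evidence of agreement.

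**Figure D4:**
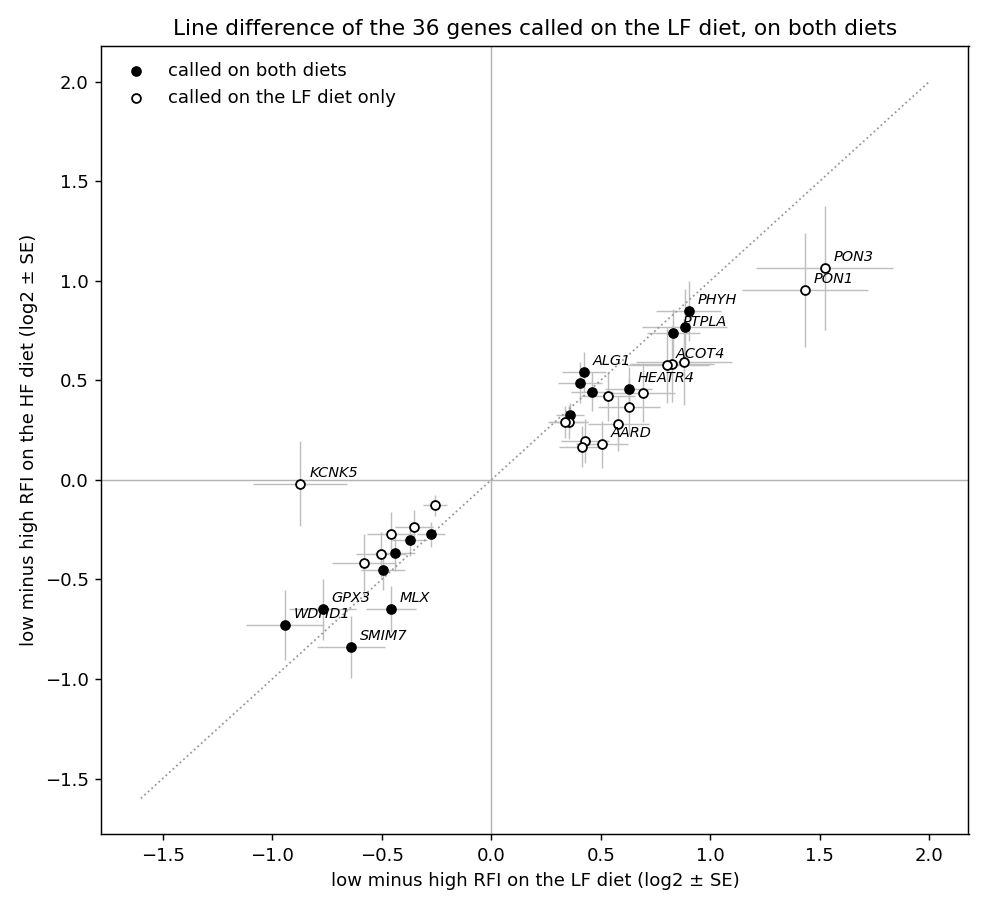
Line difference (low minus high RFI, log2, with SE) of the 36 genes called on the LF diet, on that diet (x axis) and in the HF pigs (y axis), with filled points for the 16 genes called on both diets and a dotted line of equality. All 36 lie in the quadrants of equal sign, and KCNK5 lies at -0.87 on the LF and -0.02 on the HF diet.

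Whether the line difference itself changed with the diet was tested as an interaction. No probe was called in limma. At a raw p under 0.05 there were 982 probes and under 0.01 there were 131, while 1% of the tested probes would be 433.27. The diet by line analysis of variance of the methods called none either, with 966 at a raw p under 0.05. Among the 180 probes called on the LF diet 16 had an interaction p under 0.05 and 3 under 0.01. No probe was shown to respond to line in a way that depends on diet.

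The pathways of fat metabolism were next described by lists of genes at their brightest probe. Over all 10938 genes the median difference was 0.00, 49.6% were higher in low RFI pigs and 5.81% had a raw p under 0.05. Of 26 lists, 2 held a called gene, RPL14 among cytosolic ribosomal proteins and GPX3 among antioxidant genes. No gene of de novo lipogenesis was called, 12 of 19 were higher in low RFI pigs and the median was 0.06. Its members included FASN (0.09 ± 0.07, BH p = 0.981), the fatty acid synthase, PGD (0.28 ± 0.14, BH p = 0.787), which supplies NADPH, and ELOVL6 (-0.42 ± 0.22, BH p = 0.787), an elongase. In triglyceride storage and lipolysis 19 of 24 genes were higher in low RFI pigs, with a median of 0.07 and none called. The fatty acid carrier FABP5 (0.24 ± 0.08, BH p = 0.327) had a raw p under 0.05, as did PLIN2. Of the beta-oxidation genes 20 of 26 were higher in low RFI pigs with a median of 0.09 and no call, and 3 had a raw p under 0.05: SCP2 (0.25 ± 0.08, BH p = 0.196), CPT2 (0.17 ± 0.07, BH p = 0.656), which loads fatty acids into the mitochondrion, and ACADL (0.22 ± 0.10, BH p = 0.715), an acyl-CoA dehydrogenase.

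Glycolysis had 12 of 23 genes higher in low RFI pigs with a median of 0.00, and cholesterol synthesis had 10 of 19 with 0.01. Oxidative phosphorylation had 44 of 72 with a median of 0.01, and mitochondrial ribosomal proteins 43 of 65 with 0.02. The cytosolic ribosome leaned further to one side, with 68 of 75 genes higher in low RFI pigs and a median of 0.06, though of the 75 only RPL14 was called, and the median was -0.01 in the HF pigs. That median fell to 0.03 on the LF diet with quantile normalization and to 0.02 with normexp background correction before it. In the proteasome 30 of 36 were higher, with a median of 0.06. Chaperones had 12 of 24 and a median of 0.00, and genes of the amino acid stress response 10 of 15 and 0.11. Besides the ribosome, none of these lists held a gene called at its brightest probe. Antioxidant genes had a median of 0.07, and metal handling had 10 of 14 genes higher and a median of 0.08, with no call.

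The list of xenobiotic and steroid enzymes held the widest range, with 27 of 42 genes higher in low RFI pigs, a median of 0.05, 7 at a raw p under 0.05 and none called. AKR1C2, an aldo-keto reductase of steroids, ranged from 7.73 to 8.72 in low RFI pigs, with a median of 8.29, and from -2.04 to 8.32 in high RFI pigs, with a median of 7.35. It was well above background on 10 of the 12 high RFI arrays, and the other 2 set the bottom of the range. Its difference was 2.30 ± 0.75, with BH p = 0.277, and rests on those 2 arrays in part, being 0.72 on the first scan day and 3.88 on the second. AKR1C1, a close relative, ranged from 4.81 to 6.21 in low RFI pigs, with a median of 5.63, and from -1.69 to 5.64 in high RFI pigs, with a median of 4.81. It was measured above background on 10 high RFI arrays as well, and it differed by 1.81 ± 0.55 (BH p = 0.196). This difference was 0.76 on the first scan day and 2.86 on the second. It was the largest of the 6 tested AKR1C1 probes, of which the smallest gave 0.05 and none was called. CYP1A2, a cytochrome P450 of foreign compounds, differed by 0.56 ± 0.15 (BH p = 0.0944) and was called without pig 4.

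Most interferon-stimulated, cell cycle, complement and MHC class I genes were higher in high RFI pigs, and no gene of these lists was called at its brightest probe. The unnamed probe NP276891, described as class I and given above, was called but is on no list. Of the interferon-stimulated genes 32 of 38 were higher in high RFI pigs, with a median of -0.18, and 6 had a raw p under 0.05. The median of this list was 0.05 in the HF pigs. BST2, which tethers enveloped viruses, ranged from 2.37 to 3.79 in low RFI pigs, with a median of 2.89, and from 2.81 to 3.98 in high RFI pigs, with a median of 3.50, and differed by -0.56 ± 0.16 (BH p = 0.138). XAF1 differed by -0.95 ± 0.34 (BH p = 0.391) and IFI6 by -0.50 ± 0.22 (BH p = 0.639). Of cell cycle and replication genes 23 of 24 were higher in high RFI pigs with a median of -0.17, and 1, CDC45, a replication factor, had a raw p under 0.05, with a difference of -0.22 ± 0.08 (BH p = 0.339). The called genes WDHD1, HELQ and GINS2 also act on DNA but were not on that list, and they are put beside it here after they were called. Of MHC class I and peptide loading genes 11 of 16 were higher in high RFI pigs with a median of -0.10, and the class I gene SLA-2 differed by -0.40 ± 0.15 (BH p = 0.381), while MHC class II had a median of -0.01. Complement had 20 of 28 higher in high RFI pigs and a median of -0.11. A raw p under 0.05 was reached by 4 of the 16 MHC class I genes and by 0 of the 28 complement genes. In the HF pigs the medians were -0.11 for cell cycle, -0.08 for MHC class I and -0.02 for complement genes.

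The remaining lists held no called gene. Their medians were 0.00 for chemokines and cytokines, 0.00 for insulin and IGF signalling, 0.06 for adipokines, 0.01 for adipogenic factors, -0.04 for energy expenditure, 0.01 for the circadian clock and 0.01 for the extracellular matrix. Under the other scalings the median of all genes stayed between 0.00 and 0.01.

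**Figure D5:**
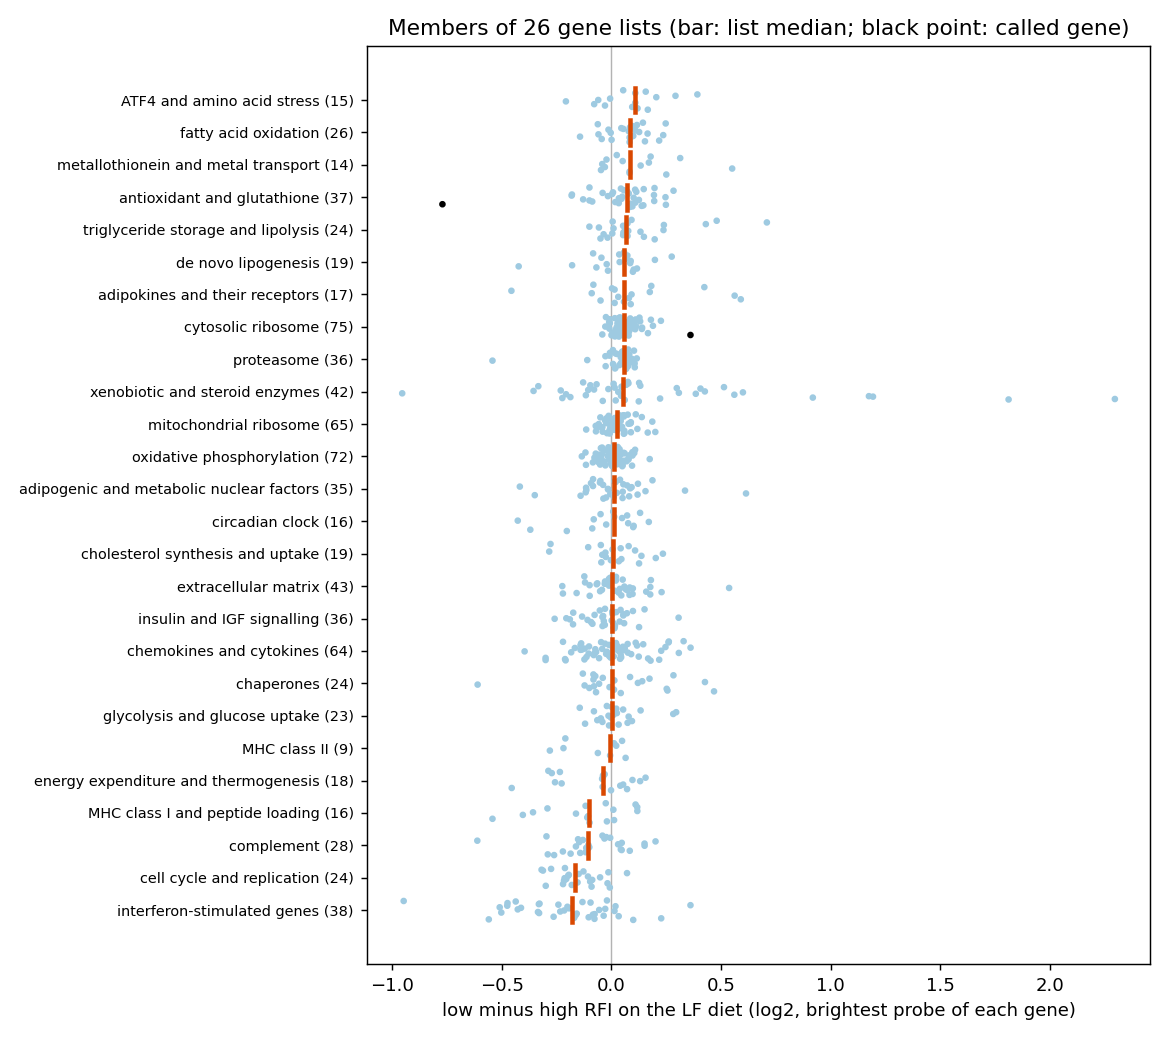
Line difference on the LF diet (x axis, low minus high RFI, log2, brightest probe) of every member of 26 gene lists (y axis, number of genes tested in brackets), with an orange bar for the list median, black points for the 2 called genes GPX3 and RPL14 and a grey line at the median of all genes. Medians run from -0.18 for interferon-stimulated genes to 0.11 for amino acid stress genes.

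The defining genes of white fat were bright in every LF pig. The mean level of 11 adipocyte markers was 8.14 to 8.64 in low RFI and 8.28 to 8.62 in high RFI pigs, with ADIPOQ at 10.16 on average, and of these markers none was called. Levels of 16 macrophage markers were 1.57 to 3.53 in low RFI and 1.87 to 2.73 in high RFI pigs, and those of 15 T and NK cell markers 1.72 to 2.78 in low RFI and 1.77 to 2.39 in high RFI pigs. The 8 B and plasma cell markers were all higher in high RFI pigs, by a median difference of 0.08, and their level was 0.76 to 1.21 in low RFI and 0.79 to 2.32 in high RFI pigs. In the HF pigs the median of these 8 was 0.03, in the other direction. Fibroblast markers were at 4.60 to 6.09 in low RFI and 4.66 to 5.83 in high RFI pigs, endothelial markers at 3.47 to 3.84 in low RFI and 3.53 to 3.91 in high RFI pigs and smooth muscle markers at 3.94 to 4.94 in low RFI and 3.99 to 5.14 in high RFI pigs. The 9 smooth muscle markers were likewise all higher in high RFI pigs, with a median of -0.04, and of -0.18 in the HF pigs. The 10 adrenal markers that passed the filter were at 1.03 to 1.47 in low RFI and 0.98 to 1.52 in high RFI pigs. Only 4 kidney markers passed it, at 0.70 to 1.06 in low RFI and 0.42 to 1.03 in high RFI pigs, of which CUBN, an endocytic receptor, differed by 0.47 ± 0.14 (BH p = 0.148) and was called without pig 4. Granulocyte and mast cell, erythrocyte, skeletal muscle, mesothelium, brown fat and nerve markers also overlapped in level between the lines, and their medians differed by -0.06, 0.08, -0.05, 0.09, 0.01 and 0.06. No marker gene was called at its brightest probe, though SMTN of smooth muscle was called at another one, and the part of cell makeup in the differences above was not tested.

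Some of the genes with a called probe lie next to each other on the pig chromosomes in the gene order of the Sscrofa11.1 annotation. Of 51 such genes with a place in it, 7 had another one within 10 protein-coding genes (13.7%), against 5.46% of the other tested genes. PON1 and PON3, whose brightest probes rose and fell together, were direct neighbours. So were ECHDC2 and SCP2, both higher in low RFI pigs, and MTERF3 and UQCRB, both lower at their called probes. UQCRB was called at 1 of 8 probes, and its others differed by -0.06 to -0.02. What that called probe binds was not tested. NDUFAF6, higher in low RFI pigs, lay 4 genes from MTERF3. C4H8orf37, the gene name that the description of TC580963 gives, lay 1 gene from NDUFAF6 and was picked after its values were seen. It ranged from 1.84 to 3.59 in low RFI pigs, with a median of 2.87, and from 1.89 to 2.71 in high RFI pigs, with a median of 2.1, and differed by 0.60 ± 0.16 (BH p = 0.122), with 0.81 in the HF pigs and a call without pig 4. The order was used for neighbourhood only, since the files name no genome build.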

How the data were processed

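PRAT RNA of 48 pigs was labelled with Cy3 and hybridised, 1 pig per array, to Agilent porcine arrays. The spot intensity values were made by the authors with Agilent Feature Extraction 10.7.3.1, and the deposited files carry quality flags of 0 or 1 for each spot. A table of log2 values was deposited too. The authors, using R 2.10.0, filtered spots, took log2 and centred each array on its median. All but 1 of its 38142 rows equal a spot of the scanner files within 1e-05 (log2), but only 2 carry that spot's name, so the scanner files were used and the table served as an alternative, its rows named by the matching spot. The genome build is not given in the sources used here.

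Here log2 of the median signal was centred on the median of the 60305 noncontrol probes. Groups were taken from the sample titles. Group means of diet and line were fitted on all 48 arrays with limma 3.58.1 (R 4.3.3), and the LF, HF and interaction contrasts were tested with Benjamini-Hochberg adjustment over all 43327 probes tested. A gene is read at its brightest probe, by symbols of the scanner files updated through reference tables. Named genes are the called genes with the 15 largest differences in each direction, of which 14 were found higher in high RFI pigs, and called members of the gene lists. Tables and plots were made with Python 3.11.15, pandas 2.3.3, numpy 2.4.6 and matplotlib 3.10.9, and the fit was tested on simulated data. Alternatives were other scalings, background corrections, filters, thresholds, blocks, array weights, the methods' analysis of variance, the mean of a gene's probes, single scan days and leaving out each pig. Litters are not given, so p-values measure the spread between these animals. The members and gene lists were chosen with earlier results of these data known. Some genes are not reported here.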

Additional observations from a re-analysis of the deposited data

Results flagged for a closer look

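KCNK5, the potassium channel gene, was singled out because its line difference was not alike on the diets: the LF difference minus the HF difference was -0.85 on the log2 scale, with a raw interaction p of 0.0071 in limma over 24 LF and 24 HF pigs. It was -0.87 on the LF and -0.02 on the HF diet, and lower in low RFI pigs on all 6 slides of the LF diet. The interaction did not pass Benjamini-Hochberg adjustment over the 43327 probes tested, and KCNK5 was called in 11 of the 24 fits that left out 1 LF pig. KCNK5 was picked for this gap among genes called on the LF diet, so its raw p is no independent evidence. Of the 180 probes called on that diet 3 had a raw interaction p under 0.01, and that of a dim EPHA4 probe was smaller, 0.00118 in limma. At the brightest EPHA4 probe it was 0.124.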

How the results depend on the processing

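All 36 genes kept their direction under every alternative run: of 1510 values 1220 stayed called and 290 did not, and none reversed. Most alternatives could hardly reverse a direction. Thresholds, filters, blocks, the analysis of variance and the LF arrays alone reuse the same line differences, and 24 fits each leave out 1 LF pig. The lack of reversals is therefore no independent evidence. The 180 called probes and 36 called genes fell to 117 and 22 with the LF arrays alone and to 89 and 15 at a fold over 1.5. They rose to 322 and 72 with array weights. Leaving out 1 pig at a time gave 133 to 335 probes and 27 to 79 genes, and the highest of both came without low RFI pig 4. With either scan day alone, an alternative chosen after seeing the data, the counts were 0 and 0 for the first day and 71 and 13 for the second. The share of called probes with the same direction in HF pigs was 99.4%, rose to 100% with background-subtracted signals, quantile normalization, with or without normexp, a BH threshold of 0.05 or a fold over 1.5, and lay between 97.9% and 100% when 1 pig was left out. It was lowest, over all alternatives, on the second scan day, at 69 of 71 probes, and next lowest with the replicate block, at 287 of 294. Interactions at a raw p under 0.01 numbered 131, against 212 with no filter, 60 and 245 for the first and second scan day and 104 to 161 without 1 pig, and none was called in any of these fits. The cause of these shifts was not tested, except that the fold threshold and single days keep fewer probes or pigs.

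With the slide as a block 215 probes and 43 genes were called, and with the scan day as a block 191 and 37. With the replicate block, 294 probes and 66 genes were called and 225 interactions had a raw p under 0.01. Same-numbered pigs shared a slide, with 2 numbers on each. The labels do not say that a number marks a pair, and only 6 of 12 same-numbered low and high RFI pigs deviated together at r over 0.1, from -0.305 to 0.423, and 2 of 12 low RFI pigs correlated best with their own number.

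Signal over background limits the low levels, as for AARD, which was well above background on 3 of 12 high RFI arrays.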

Other observations

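Without low RFI pig 4, 43 further genes were called on the LF diet, and a few are given here, picked after their values were seen. They are no independent evidence, since the pig was left out after its place among the high RFI pigs was known. On the low RFI side PLIN2, a coat protein of lipid droplets, differed by 0.78 ± 0.19 (SE, BH p = 0.0279), CYP1A2 by 0.62 ± 0.15 (BH p = 0.0249), CUBN, an endocytic receptor of kidney tubules, by 0.54 ± 0.13 (BH p = 0.0316) and MAPT, a microtubule protein, by 1.08 ± 0.28 (BH p = 0.0609). Higher in high RFI pigs were OAZ3, of the family that restrains polyamine synthesis, at -1.5 ± 0.35 (BH p = 0.0248), the amino acid exchanger SLC7A7 at -0.76 ± 0.20 (BH p = 0.0636) and the class I genes that the files name HLA-B, at -0.70 ± 0.17 (BH p = 0.0337), and HLA-H, at -0.56 ± 0.15 (BH p = 0.0648). All of these had the same direction on both diets.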
